A study of Mus musculus with 4 samples.

Results

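The genes described here encode the proteins of the cytosolic ribosome, taken as every mouse symbol of the form Rpl or Rps followed by a digit, together with Rplp0, Rplp1, Rplp2 and Rpsa, without pseudogene symbols and without the S6 kinases. The rule found 92 genes among 39179 gene identifiers, 54 with a large subunit name and 38 with a small subunit name. A filter on low counts kept 86 of them, 50 large and 36 small, and the 6 others are given by their counts. The rule goes by name, so it takes in 1 gene that is not a ribosomal protein (Rps19bp1) and leaves out some ribosomal components, of which Fau and Rack1 are given separately.

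A ribosome holds 1 copy of nearly every one of these proteins, so cells make them in matched amounts, largely by controlling translation of mRNAs that begin with a run of pyrimidines (TOP mRNAs) through mTOR and the TOP-binding protein Larp1. The small subunit reads the mRNA, and the large subunit joins amino acids and passes the new chain through its exit tunnel. Activated T cells make many ribosomes before they divide, under the control of Myc and mTOR.

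The cells were CD4 T cells of OT-II mice, whose transgenic T cell receptor recognises ovalbumin. They were moved into C57BL/6 hosts, which were then injected under the skin with ovalbumin carrying nitrophenol. On day 8 the transferred cells, marked by Thy-1.1+ and high CD44, were sorted from pooled inguinal nodes as CXCR5+ PD-1+ cells, the T follicular helper (Tfh) cells that support germinal centre B cells, or as CXCR5- PD-1- non-Tfh cells. Each group had 2 libraries of stranded total RNA, numbered T32 and T53 in both, and the labels say neither what the numbers mark nor whether separate animals were used. The spread behind each p-value is therefore that between these libraries alone and may be technical. Both groups carried the same transgenic receptor, were CD44hi and had met the same antigen, so neither is a resting population.

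The smallest library, Tfh T53, had 5725358 counts and the largest, non-Tfh T32, had 13360563, and 11702 genes were tested. Levels below are TMM-scaled CPM (counts relative to library size, with a trimmed-mean scaling between libraries), as mean ± SD with n = 2 libraries per group, and changes are log2 fold changes of Tfh over non-Tfh ± SE from edgeR's quasi-likelihood test, adjusted over all 11702 genes by Benjamini-Hochberg at 0.05. The sorted proteins' genes separated the groups as labelled, with Cxcr5 at 730 ± 25.1 CPM in Tfh and 54.3 ± 2.40 in non-Tfh and Pdcd1 at 556 ± 28.2 and 55.2 ± 2.54. The 9 T cell markers summed to 8086 to 9941 CPM in the 4 libraries. The 9 B cell markers found summed to 338 and 325 CPM in Tfh T32 and T53 and 169.7 and 144 in non-Tfh T32 and T53, most of it Ighm and Cd22, and 2 of 3 tested (Cd22, Pax5) rose; their part in the results was not tested. Other defining B cell markers were at or near 0 (Ms4a1 0 to 8 counts, Cd79a 0 to 6), and 6 erythroid markers summed to at most 0.225 CPM.

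Of the 86 ribosomal protein genes tested, 1 rose in Tfh cells and none fell at an adjusted p under 0.05 with edgeR. The gene that rose was Rpsa, at 1.69 times its non-Tfh level. The background was 8.49% of all genes called in either direction, 4.47% higher and 4.02% lower. Most of the other members had modestly lower values in Tfh: 83 of 86 log2 fold changes were below 0, against 50.7% of all genes tested, and the median was -0.28, a level 1.21 times higher in non-Tfh, against -0.01 over all genes. In 52 of 86 members both Tfh libraries lay below both non-Tfh libraries (background 25.6%), in 1 both lay above (26.6%) and in 33 the groups overlapped (47.8%). Before adjustment 14 members had a p under 0.05 with a lower Tfh level (background 10.5%). DESeq2 called 4 of them lower at an adjusted p under 0.05 (background 4.58%), among them Rps19, Rpl10a and Rpl5, and limma-voom called none lower (background 3.34%). With no count filter edgeR called 8 lower (background 5.45%).

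**Figure D1:**
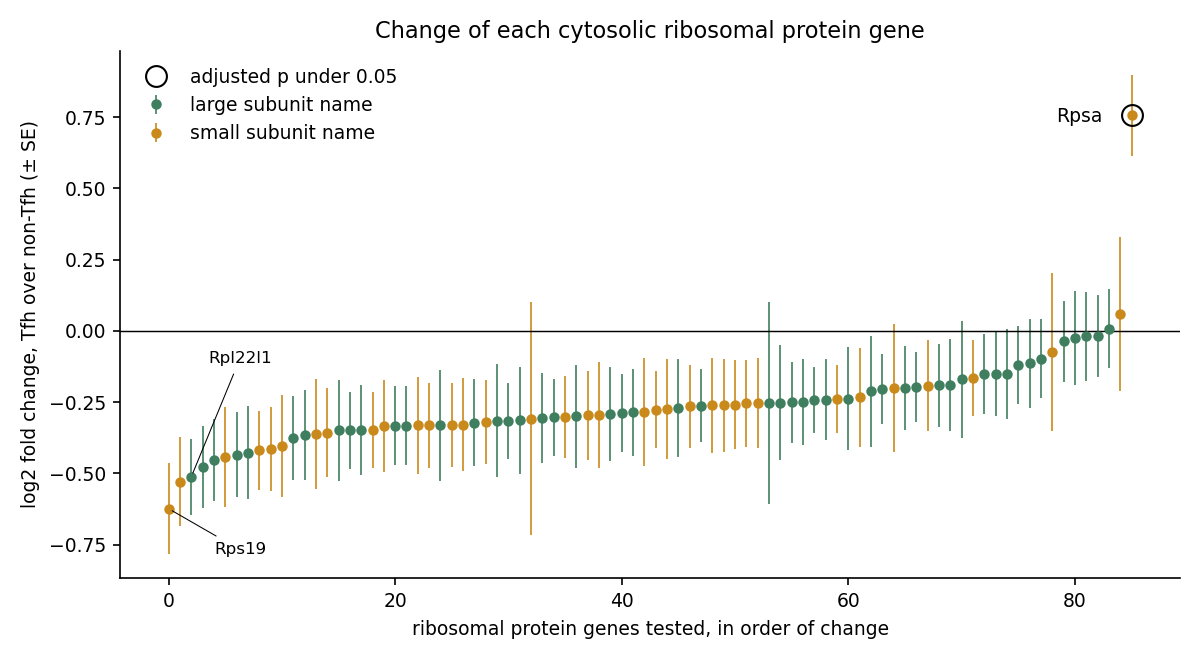
Log2 fold change (Tfh over non-Tfh, ± SE) of the 86 ribosomal protein genes tested, in order, coloured by subunit name, with a ring around a gene called at an adjusted p under 0.05. All but 3 lie below 0, between -0.62 for Rps19 and -0.02 for Rpl27, while Rpsa alone stands at 0.76.

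Rpsa encodes a small subunit protein near the mRNA exit site and is also known as the laminin receptor precursor. The gene (ENSMUSG00000032518) has 7 exons in its principal annotated transcript and lies at chr9:120127689-120132369 on the plus strand of GRCm38. Its promoter is shown because it is the one member that passed the test, beside Rpl4, which also carries the pyrimidine letters searched for, and Rplp0, Rps6 and Rpl22l1, which do not. The sequences are from RefSeq on GRCm38.p6, 40 bases before and 30 from the annotated start on the coding strand, with CTTTC in capitals.
Rpsa, chr9:120127726-120127795: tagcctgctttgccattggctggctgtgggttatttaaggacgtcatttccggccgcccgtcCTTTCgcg
Rpl4, chr9:64173347-64173416: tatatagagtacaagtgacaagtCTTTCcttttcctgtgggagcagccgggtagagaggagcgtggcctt
Rplp0, chr5:115559427-115559496: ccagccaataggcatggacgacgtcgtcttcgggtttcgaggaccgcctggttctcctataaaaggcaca
Rps6, chr4:86857338-86857407: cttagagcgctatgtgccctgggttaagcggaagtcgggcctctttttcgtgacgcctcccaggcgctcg
Rpl22l1, chr3:28805468-28805537: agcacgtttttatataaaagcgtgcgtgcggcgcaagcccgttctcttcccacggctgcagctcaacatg

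The promoter table matched 67 of the 92 genes, 10 of them with more than 1 start. CTTTC, searched on the coding strand from 25 bases before to 50 after the start, was present in 33 of 67 (49.3%), against 11.1% of 27025 genes of the table. On the other strand of the same window it was present in 9 (13.4%), against 10.8%. CCGGAAG, the letters of an ETS family motif, was present on either strand in the 250 bases before to 50 after the start of 26 of 67 (38.8%), against 9.93%. The 32 tested members with CTTTC had a median log2 fold change of -0.29 and the 32 without it -0.26, and the medians were -0.26 for 25 members with CCGGAAG and -0.29 for 39 without. A match is a description of the letters in the window, not a site, and the annotated starts were not measured here.

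Rpsa stood at 1942 CPM in Tfh T32 and 1744 in Tfh T53, and at 1099 and 1084 in non-Tfh T32 and T53. The groups did not overlap, and the 2 non-Tfh libraries lay close together. The means were 1843 ± 140.1 and 1091 ± 10.5, a log2 fold change of 0.76 ± 0.14 (adjusted p = 0.0269). Within the T32 libraries the log2 ratio was 0.82 and within the T53 libraries 0.69. The call held under each other setting that used all 4 libraries, with adjusted p from 1.51e-06 with DESeq2 to 0.0319, but not with any library left out: the adjusted p was 0.101 without Tfh T32, 0.0533 without Tfh T53, 0.0768 without non-Tfh T32 and 0.0843 without non-Tfh T53, with log2 fold changes from 0.68 to 0.85.

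The share of Rpsa among the counts on these genes also differed without overlap. It made up 6.40% and 7.07% of all counts on the 92 genes in Tfh T32 and T53, and 3.21% and 3.51% in non-Tfh T32 and T53, a mean share 2.00 times higher in Tfh.

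Reads of Rpsa could be shared with its processed pseudogenes, since how the authors' counting treated reads with several matches is not given in the sources used here. The 8 annotated Rpsa pseudogenes with a symbol held 175 and 76 counts in Tfh T32 and T53 and 94 and 79 in non-Tfh T32 and T53, against 9643 to 23181 for Rpsa. These counts are not scaled, and the library totals were 12354113 and 5725358 in Tfh and 13360563 and 8636056 in non-Tfh. Relative to the totals, the pseudogene counts were higher in both Tfh libraries than in both non-Tfh libraries, as those of Rpsa were. The part of shared reads in the Rpsa result was not tested. Gm26448, a small nucleolar RNA gene within Rpsa, held 525 and 42 counts in Tfh and 731 and 49 in non-Tfh, a difference by library number rather than by group. Slc25a38, the neighbouring carrier gene, held 203 and 101 counts in Tfh and 235 and 168 in non-Tfh.

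**Figure D2:**
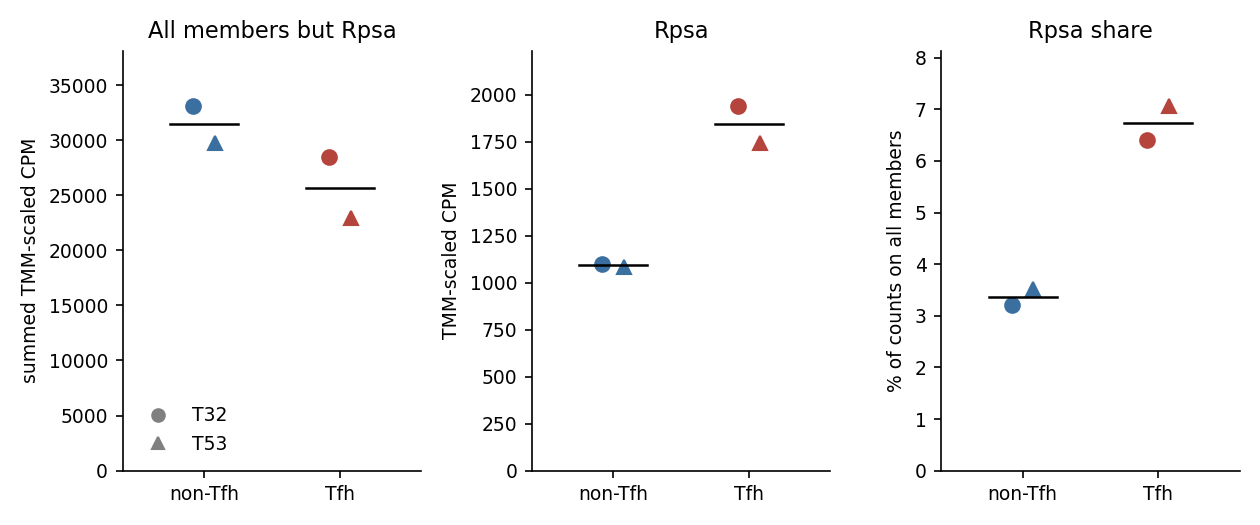
Left, the summed CPM of all ribosomal protein genes but Rpsa; middle, the CPM of Rpsa; right, Rpsa as a percentage of counts on all ribosomal protein genes, with circles for T32, triangles for T53 and bars for group means. The sum without Rpsa was 25669 in Tfh and 31449 in non-Tfh, while Rpsa was 1843 and 1091 CPM.

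As a whole the 92 genes took 2.93% and 2.47% of all counts in Tfh T32 and T53 and 3.44% and 3.18% in non-Tfh T32 and T53, so both Tfh libraries lay below both non-Tfh libraries. The group means were 2.70% ± 0.331 and 3.31% ± 0.186. Mitochondrially encoded genes took 21.3% ± 1.23 of counts in Tfh and 18.4% ± 1.68 in non-Tfh. With mitochondrial genes and structural RNA taken out of the total, the ribosomal protein share was 3.47% ± 0.493 in Tfh and 4.10% ± 0.336 in non-Tfh. The summed level was 27512 ± 4033 CPM in Tfh and 32540 ± 2399 in non-Tfh (exact two-sided permutation p = 0.33, the smallest that 2 libraries against 2 allow). Genes with a large subunit name summed to 15468 ± 2232 and 18643 ± 1518 CPM, and those with a small subunit name to 12044 ± 1801 and 13897 ± 881. In bulk RNA a lower share of the genes in every cell and a smaller share of cells rich in them cannot be told apart.

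The members moved together by library as well as by group. Tfh T53 held the lowest level of 80 of the 86 tested members and non-Tfh T32 the highest of 79. Relative to each gene's mean over the libraries, the median log2 level of the members was 0.02 and -0.30 in Tfh (T32, then T53) and 0.22 and 0.06 in non-Tfh. Tfh T32 thus sat close to non-Tfh T53, and the gap between T32 and T53 was of like size to that between the groups. Within Tfh, 84 of 86 members were lower in T53 than in T32 (median log2 ratio -0.31), and within non-Tfh 82 of 86 were (-0.17), while the median over all genes was -0.0018 and -0.0019.

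**Figure D3:**
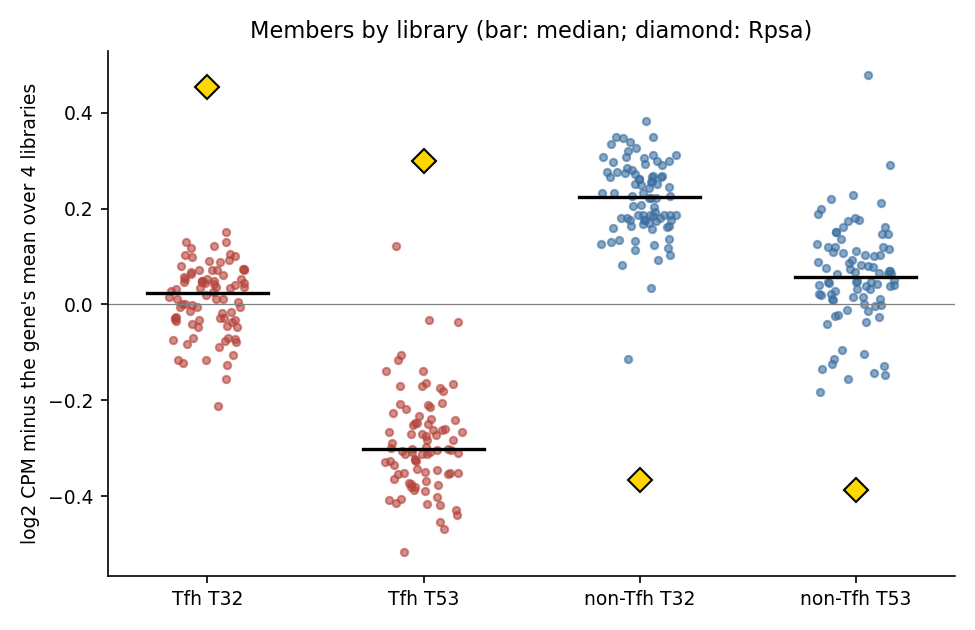
Log2 CPM of each tested ribosomal protein gene minus that gene's mean over the 4 libraries, by library, with a bar at the median and a diamond for Rpsa. The medians are 0.02, -0.30, 0.22 and 0.06 from left to right, while Rpsa lies above 0 in both Tfh libraries and below it in both non-Tfh libraries.

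The group difference of the members was -0.21 in the median within T32 (83 of 86 below 0) and -0.35 within T53 (81 of 86), and 79 members were below 0 in both. Leaving out Tfh T32 gave a median over the ribosomal protein genes of -0.44, leaving out Tfh T53 -0.12, leaving out non-Tfh T32 -0.19 and leaving out non-Tfh T53 -0.36. Other RNA classes also differed by library number. Structural RNA summed to 11250 and 6627 CPM in the Tfh libraries T32 and T53 and to 10556 and 4639.6 in the non-Tfh libraries, and genes of small nucleolar and small nuclear RNA took 0.101%, 0.0310%, 0.150% and 0.0433% of counts in the same order. Their part in the result was not tested. The 597 other protein-coding genes with a transcript under 1 kb had a median log2 fold change of 0.08, with 39.2% below 0, and the part of transcript length in the result was not tested.

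The proteins of the P stalk, the arm of the large subunit that recruits elongation and release factors, are encoded by Rplp0, Rplp1 and Rplp2. Rplp0, the stalk's base, had 1033 and 912 CPM in Tfh T32 and T53 and 1238 and 1074 in non-Tfh T32 and T53, without overlap (log2 fold change -0.25 ± 0.15, adjusted p = 0.417). Rplp1 had 707 and 563 CPM in Tfh and 698 and 678 in non-Tfh, and its groups overlapped (-0.11 ± 0.15, adjusted p = 0.746). Rplp1 also had the highest level per length of all members, 1326 CPM per kb of transcript, and Rplp0 had 784. Rplp2, its partner in the stalk, had 305 and 266 CPM in Tfh and 353 and 332 in non-Tfh, without overlap (-0.26 ± 0.13, adjusted p = 0.306).

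Rpl5 and Rpl11 bind the 5S ribosomal RNA and carry it into the large subunit, and when in surplus they bind Mdm2, the ubiquitin ligase of p53. Rpl5 had 513 and 432 CPM in Tfh T32 and T53 and 669 and 625 in non-Tfh T32 and T53 (log2 fold change -0.45 ± 0.14, adjusted p = 0.120). Rpl11 had 227 and 185 CPM in Tfh and 278 and 237 in non-Tfh (-0.32 ± 0.15, adjusted p = 0.290). Neither pair of groups overlapped, but the lower non-Tfh value of Rpl11 lay only slightly above its higher Tfh value.

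Around the mouth of the exit tunnel sit Rpl17, Rpl19, Rpl23a, Rpl26, Rpl31, Rpl35 and Rpl39, where chaperones and the signal recognition particle dock. None of the 7 was called, their median log2 fold change was -0.19, and both Tfh libraries lay below both non-Tfh libraries in 1, Rpl26, against 25.6% of all genes. Rpl26 had 252 and 200.2 CPM in Tfh and 301 and 259 in non-Tfh (log2 fold change -0.31 ± 0.16, adjusted p = 0.329). Rpl39, a small protein lining the tunnel, had 186 and 148 CPM in Tfh and 188 and 153 in non-Tfh (-0.03 ± 0.16, adjusted p = 0.958). Its levels followed the library number more than the group. Rpl23a and Rpl35, which contact the signal recognition particle, had log2 fold changes of -0.10 ± 0.14 and -0.27 ± 0.17, and Rpl17, Rpl19 and Rpl31 had -0.25, -0.15 and -0.19.

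The mRNA channel and decoding region of the small subunit were represented by Rps2, Rps3, Rps15, Rps23, Rps26, Rps27a and Rps28. None was called, the median was -0.33, and both Tfh libraries lay below both non-Tfh libraries in 6 of 7 (25.6% of all genes), Rps26 being the exception. Rps3, which lines the mRNA entry and also takes part in DNA repair, had 558 and 422 CPM in Tfh T32 and T53 and 702 and 594 in non-Tfh T32 and T53 (log2 fold change -0.40 ± 0.18, adjusted p = 0.259). Rps2, next to it at the entry, had 383 and 359 CPM in Tfh and 506 and 438 in non-Tfh (-0.35 ± 0.13, adjusted p = 0.193). Both genes had their highest value in non-Tfh T32. Rps23, whose loop reaches into the decoding centre, and Rps15, in the head of the subunit, had log2 fold changes of -0.36 ± 0.16 and -0.33 ± 0.15. Rps26 and Rps28, at the mRNA exit, had -0.30 ± 0.19 and -0.25 ± 0.15, and Rps27a, made as a fusion with ubiquitin, had -0.26 ± 0.15.

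Rps19 was the member with the most negative value. Loss of 1 copy of the human gene impairs production of the small subunit and causes Diamond-Blackfan anaemia. Rps19 had 273 and 208 CPM in Tfh T32 and T53 and 378 and 363 in non-Tfh T32 and T53. The Tfh values were more spread than the non-Tfh values, and the groups were well apart. The log2 fold change was -0.62 ± 0.16, or 1.54 times higher in non-Tfh (adjusted p = 0.0651). Leaving out Tfh T32 brought it past the threshold (-0.83, adjusted p = 0.0424), and leaving out Tfh T53 gave -0.43 (adjusted p = 0.336).

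Other genes of assembly disease and the S6 kinase substrate Rps6 had smaller differences. In all 8 genes of that list both Tfh libraries lay below both non-Tfh libraries (25.6% of all genes), none was called, and the median was -0.31. Rps6, the protein phosphorylated downstream of mTOR, had 324 and 258 CPM in Tfh T32 and T53 and 371 and 357 in non-Tfh T32 and T53 (log2 fold change -0.32 ± 0.15, adjusted p = 0.275). Rps14, whose human gene lies in the deletion of the 5q- syndrome, had 330 and 273 CPM in Tfh and 414 and 393 in non-Tfh (-0.42 ± 0.14, adjusted p = 0.135). Rps7, Rps10, Rps24 and Rpl35a, further Diamond-Blackfan genes, had log2 fold changes from -0.33 (Rpl35a) to -0.26 (Rps24).

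Rpl10a, Rpl22, Rpl38 and Rps25 have been tied to the translation of particular mRNAs, and their values spread widely. Rpl10a had 226 and 181 CPM in Tfh T32 and T53 and 289 and 280 in non-Tfh T32 and T53, without overlap (log2 fold change -0.48 ± 0.14, adjusted p = 0.105). Rps25, needed for initiation at some internal entry sites, had 271 and 215 CPM in Tfh and 333 and 277 in non-Tfh (-0.33 ± 0.16, adjusted p = 0.314). Rpl38, known for its part in Hox mRNA translation, had 182 and 133 CPM in Tfh and 203 and 169 in non-Tfh and overlapped (-0.24 ± 0.18, adjusted p = 0.528). Rpl22, which is needed for the development of alpha-beta T cells, had nearly equal levels in the groups and is given beside its paralog.

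Rpl22l1 is the paralog of Rpl22 and can take its place in the ribosome, and Rpl22 is known to lower Rpl22l1 expression. Rpl22 had 188 and 157 CPM in Tfh T32 and T53 and 194 and 156 in non-Tfh T32 and T53 (log2 fold change -0.02 ± 0.16, adjusted p = 0.968). Rpl22l1 had 39.4 and 34.1 CPM in Tfh and 53.8 and 51.4 in non-Tfh, without overlap (-0.51 ± 0.13, adjusted p = 0.0705). The difference between the paralogs' changes was not tested. Per length Rpl22 stood at 366 and Rpl22l1 at 80.9 CPM per kb over the 4 libraries.

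Among the other paralogs Rpl7l1, which acts in ribosome assembly, had 59.0 and 55.9 CPM in Tfh and 62.5 and 51.7 in non-Tfh (log2 fold change 0.01 ± 0.14), beside -0.29 ± 0.15 for Rpl7. Rpl36al had -0.32 ± 0.20 beside -0.24 ± 0.14 for Rpl36a, and Rps27l, a p53 target, had -0.20 ± 0.22 beside -0.25 ± 0.16 for Rps27. Rps27rt, a retrotransposed copy, had -0.28 ± 0.19. Rps27 and Rps27rt are near-identical, so their reads may have been split between them, and likewise those of Rps3a1 with Rps3a2 and Rps3a3, Rpl37 with Rpl37rt, and Rpl6 with Rpl6l. Rps19bp1, which binds Rps19 and the deacetylase Sirt1, had 5.45 and 6.11 CPM in Tfh and 6.03 and 4.95 in non-Tfh (0.06 ± 0.27), and its groups overlapped.

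**Figure D4:**
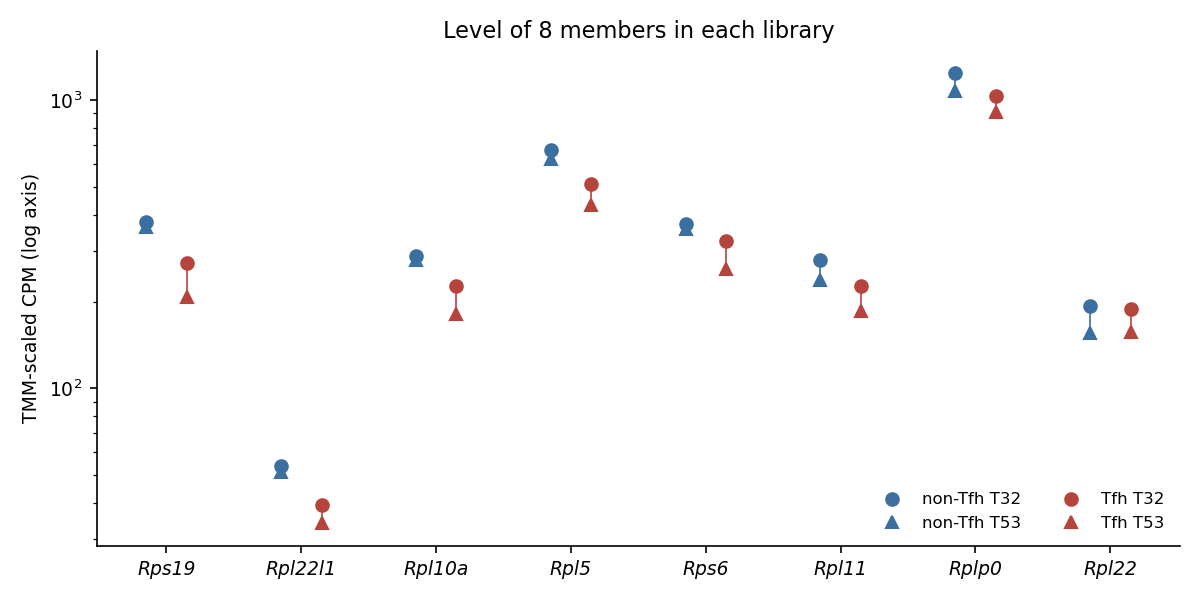
TMM-scaled CPM (log axis) of 8 ribosomal protein genes in each library, with circles for T32 and triangles for T53, non-Tfh in blue and Tfh in red. The T53 value lies below the T32 value of its group for every gene shown, and the groups are apart for all of them except Rpl22.

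Of the genes with the highest levels, Rpl4, which lines the exit tunnel, had 911 and 751 CPM in Tfh T32 and T53 and 1199 and 1036 in non-Tfh T32 and T53 (log2 fold change -0.43 ± 0.16, adjusted p = 0.191). Rpl13a, also known as part of an interferon-gamma-activated inhibitor of translation, had 975 and 726 CPM in Tfh and 1140.5 and 976 in non-Tfh (-0.31 ± 0.19, adjusted p = 0.405). The groups were apart in both genes, for Rpl13a by less than 1 CPM. Rps4x, the X-linked form of a small subunit protein, had 636 and 524 CPM in Tfh and 780 and 767 in non-Tfh (-0.41 ± 0.15, adjusted p = 0.160). Rps3a1, at the mRNA exit, had 635 and 523 CPM in Tfh and 738 and 719 in non-Tfh (-0.33 ± 0.15, adjusted p = 0.259). In both of these the 2 non-Tfh libraries were close and Tfh T53 was lowest. Rpl3, Rpl7, Rpl10, Rpl12 and Rps9 had log2 fold changes from -0.35 (Rpl12) to -0.20 (Rpl10).

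At the end nearest to 0, Rpl27, a large subunit protein, had 192 and 161 CPM in Tfh and 193 and 165 in non-Tfh (log2 fold change -0.02 ± 0.14, adjusted p = 0.968), a pattern of library number with no visible gap between the groups.

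The 6 members that the filter left out had few or no counts. Rpl3l, known from striated muscle, Rpl10l, known from the testis, and Rps12l1 had 0 counts in every library, which allows up to 0.225 CPM in the deepest. Rpl39l had 0 and 2 counts in Tfh T32 and T53 and 0 and 3 in non-Tfh T32 and T53, and Rps4l had 1 and 1 in Tfh and 0 and 3 in non-Tfh. Rpl6l had 13 and 5 counts in Tfh and 11 and 5 in non-Tfh.

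Rack1 and Fau, which the naming rule left out, also had log2 fold changes below 0. Rack1, the signalling scaffold on the head of the small subunit, had 767 and 639 CPM in Tfh T32 and T53 and 1001 and 901 in non-Tfh T32 and T53 (log2 fold change -0.44 ± 0.15, adjusted p = 0.156). Fau, made as a fusion with a ubiquitin-like protein, had -0.21 ± 0.14. Neither was called.

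TOP mRNAs outside the ribosome mainly encode translation factors. Of 21 tested, 1 fell (4.02% of all genes did) and none rose, 19 had values below 0 (50.7% of all genes) and the median was -0.17. The gene that fell was Vim, which encodes the intermediate filament vimentin, at 77.5 and 25.2 CPM in Tfh and 507 and 348 in non-Tfh (log2 fold change -3.02 ± 0.56, adjusted p = 0.0462). Its adjusted p was 0.390 without non-Tfh T32 and 0.404 without non-Tfh T53.

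Assembly factors, which process ribosomal RNA and join it to the ribosomal proteins, had a median log2 fold change of -0.32 over 73 genes tested, with 66 below 0. Of them 3 fell and none rose, a share close to the background of 4.02%. DESeq2 called 5 lower (background 4.58%) and limma-voom 1 (background 3.34%). With no count filter edgeR called more of them lower than these fits did (background 5.45%), as counted below under the dependence on processing. The median was -0.40 to -0.19 with a library left out. Dkc1, the pseudouridine synthase of box H/ACA small nucleolar particles, had 38.6 and 40.9 CPM in Tfh T32 and T53 and 65.0 and 56.7 in non-Tfh T32 and T53 (-0.62 ± 0.13, adjusted p = 0.0390). Ddx51, a helicase of large subunit assembly, fell by 0.71 ± 0.16 on the log2 scale (adjusted p = 0.0470), and Wdr43, of the small subunit processome, fell by 0.57 ± 0.13 (adjusted p = 0.0497). Without Tfh T32, Tfh T53, non-Tfh T32 and non-Tfh T53 in turn, the adjusted p was 0.182, 0.147, 0.106 and 0.0320 for Dkc1, 0.135, 0.262, 0.0808 and 0.111 for Ddx51, and 0.0725, 0.308, 0.113 and 0.0530 for Wdr43.

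RNA polymerase I, which transcribes the large ribosomal RNA precursor, was represented by 17 genes of its subunits and factors. Of these 1 fell (4.02% of all genes did), none rose, 14 had values below 0 (50.7% of all genes) and the median was -0.22. Polr1b, a core subunit, fell from 38.6 and 37.0 CPM in non-Tfh T32 and T53 to 23.0 and 21.5 in Tfh T32 and T53 (log2 fold change -0.76 ± 0.14, adjusted p = 0.0230). Its adjusted p was 0.0870 without Tfh T32, 0.146 without Tfh T53 and 0.0543 without non-Tfh T32.

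The genes that control TOP mRNAs and ribosome production, among them Myc, Mtor, Larp1 and the S6 kinases, had no common direction as a list. The list mixes drivers such as Myc with brakes such as Larp1, so its median does not give a direction of control. Of 21 tested none was called, 9 were below 0 and the median was 0.06, and DESeq2 called 1 lower and limma-voom none. Leaving out Tfh T32 gave a median of -0.03 with 12 below 0, and leaving out each other library gave 0.01 to 0.07. Cnbp and Mxd4, the 2 with the highest levels, had log2 fold changes of -0.17 ± 0.13 and 0.31 ± 0.16. Myc, Larp1, Max and Mtor were picked out after their values were seen, and none passed the test. Myc, which drives transcription of ribosomal protein and assembly genes, had 21.4 and 12.1 CPM in Tfh T32 and T53 and 34.6 and 36.5 in non-Tfh T32 and T53, without overlap (-1.05 ± 0.26, adjusted p = 0.0634, and 0.0103 with DESeq2). With edgeR the log2 fold change of Myc was -1.55 (adjusted p = 0.0103) with Tfh T32 left out and -0.72 (adjusted p = 0.143) with Tfh T53 left out. It was -1.09 (adjusted p = 0.155) and -1.01 (adjusted p = 0.184) when non-Tfh T32 or T53 was left out. Larp1, which holds TOP mRNAs back from translation, had 133 and 132 CPM in Tfh and 178 and 176 in non-Tfh (-0.41 ± 0.11, adjusted p = 0.0677). Max, the partner of Myc on DNA, had the other direction, with 101 and 102 CPM in Tfh and 76.2 and 75.3 in non-Tfh, without overlap (0.43 ± 0.11, adjusted p = 0.0631). Mtor, the kinase at the head of the pathway, had 112 and 129 CPM in Tfh and 89.8 and 101 in non-Tfh, also without overlap (0.34 ± 0.13, adjusted p = 0.193).

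**Figure D5:**
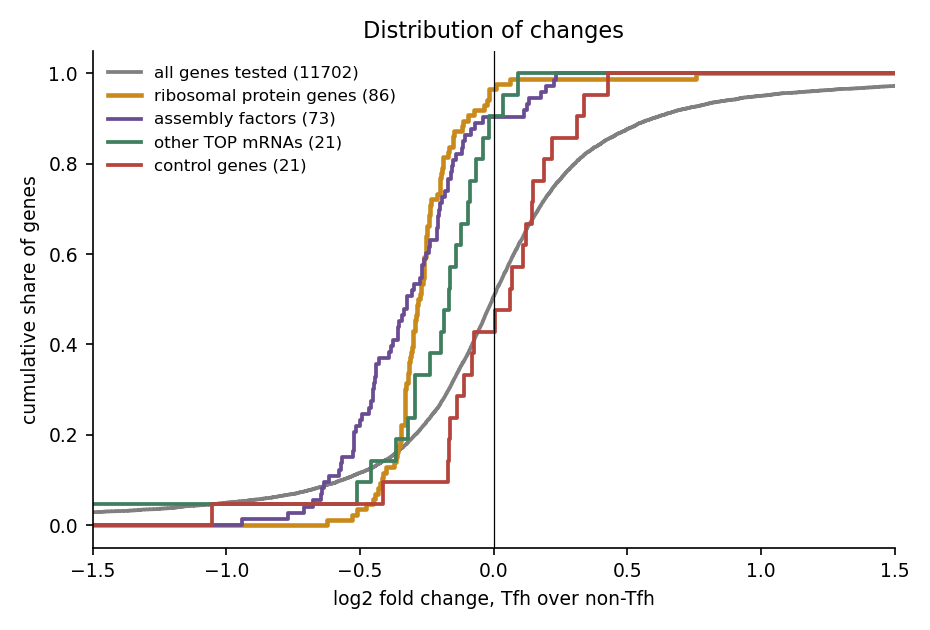
Cumulative share of genes by log2 fold change (Tfh over non-Tfh), shown from -1.5 to 1.5, for all 11702 genes tested, 86 ribosomal protein genes, 73 assembly factors, 21 other TOP mRNAs and 21 control genes. The ribosomal protein curve is steep around its median of -0.28, the assembly factors have a like median of -0.32 with a wider spread, and the control genes lie near all genes with a median of 0.06.

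Genes of replication and mitosis, which mark dividing cells, went in opposite directions by library number, unlike the ribosomal proteins. Within T32 the median log2 fold change of these genes was -0.28, with 22 of 25 below 0. Within T53 it was 0.86, with 1 of 25 below 0. Of 25 tested none was called and the median was 0.21, and their summed level was 1749 and 1972 CPM in Tfh T32 and T53 and 2064 and 1189 in non-Tfh T32 and T53. The 2 non-Tfh libraries were the highest and the lowest, so the groups overlapped. Genes of naive and memory T cells, another list, summed to 2584 and 2326 CPM in Tfh and 4107 and 4349 in non-Tfh. Of 15 tested 8 fell (4.02% of all genes did) and 1 rose (4.47%), 12 were below 0 and the median was -1.78. The gene that rose was Cd27 (log2 fold change 0.77 ± 0.12), and Tcf7 (0.40 ± 0.13) and Bcl2 (0.10 ± 0.19) were also above 0. The number that fell was 5 without non-Tfh T32 and 5 without non-Tfh T53, and none rose without Tfh T32. The part of this difference in that of the ribosomal protein genes was not tested.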

How the data were processed

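The authors deposited raw counts per Ensembl gene for 4 libraries, as whole numbers. The submitters' processing notes name TopHat2, Bowtie2, HTSeq and GRCm38 (mm10); versions, annotation release, strand setting and the treatment of reads with several matches are not given in the sources used here. Symbols came from a GRCm38 gene annotation, and 1572 of 39179 identifiers had none. Groups came from the sample labels.

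Counts were analysed in R 4.3.3 with edgeR 4.0.16 (filterByExpr, TMM scaling, robust quasi-likelihood fits with the group as the only term and 2 residual degrees of freedom, two-sided tests, Benjamini-Hochberg adjustment over 11702 genes). Each SE was derived from the test itself, by dividing the size of the log2 fold change by the root of F. Intervals and floors (3 counts) cover counting error only. Alternatives were other scalings, DESeq2 1.42.0, limma-voom (limma 3.58.1), other count filters, dispersions fitted without robustness, a replicate block, and each library left out. The code was tested on simulated data. Tables and figures used Python 3.11.15, pandas 2.3.3 and matplotlib 3.10.9.

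The members, gene lists and rules were chosen with earlier results of these data known. Named members were those of the role lists, the 6 most abundant of each subunit, and the 6 largest changes in each direction, with up to 4 called genes of each related list or, failing any, its 2 most abundant. A few genes meeting this rule are left out of the text.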

Additional observations from a re-analysis of the deposited data

How the results depend on the processing

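Under the settings that used all 4 libraries, 1 ribosomal protein gene (Rpsa) was called higher in each, and under each left-out library 0 were. These include scaling to the ribosomal protein genes, chosen after seeing the data, which centres the members by construction and moves the median of all genes to 0.28. Ribosomal protein genes called lower in Tfh numbered 0 with edgeR, 2 without scaling beyond the library total, 4 with DESeq2, 8 with no count filter (5.45% of all genes), 27 with a replicate block for the library number (8.98% of all genes), and 0 to 1 with a library left out; their median log2 fold change was -0.44 to -0.12 with a library left out. TOP mRNAs outside the ribosome called lower numbered 2 with no count filter, 5 with the block and 0 to 1 with a library left out. RNA polymerase I and its factors called lower numbered 0 to 1 with a library left out. Ribosome assembly factors called lower numbered 5 without scaling, 5 with DESeq2, 1 with limma-voom, 19 with no count filter, 22 with the block and 0 to 6 with a library left out. For control of TOP mRNAs and ribosome production, genes called higher numbered 1 with no count filter and 3 with the block, and genes called lower numbered 1 with DESeq2, 2 with no count filter, 2 with the block and 0 to 1 with a library left out. Naive and memory T cell genes called higher numbered 2 with DESeq2, 2 with the block and 0 to 1 with a library left out, and called lower 5 to 8 with a library left out. The cause was not tested. Among all genes tested in each setting, the share called lower was 4.43% without scaling, 4.58% with DESeq2 and 3.34% with limma-voom. It was 5.45% with no count filter and 8.98% with the block, against 4.02% in the main fit. The share called higher was 5.15% with DESeq2, 5.59% with no count filter and 9.14% with the block, against 4.47% in the main fit. Deviations of libraries with the same number from their group means correlated over 11702 genes (r = 0.37), but with only 2 numbers whose meaning the labels do not give, the libraries share only a number.

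Among named genes, 666 of 716 values under other settings kept direction and side of the threshold, 8 lost the call, 41 gained it, and 1 reversed, Rpl7l1 without scaling (-0.042). Values that reversed with a library left out ranged from -0.54 to 0.0026 for Rpl17, -0.33 to 0.023 for Rpl19, -0.16 to 0.15 for Rpl22, -0.21 to 0.025 for Rpl23a, -0.15 to 0.12 for Rpl27, -0.20 to 0.14 for Rpl39, -0.12 to 0.16 for Rpl7l1, -0.28 to 0.054 for Rplp1, -0.071 to 0.22 for Rps19bp1 and -0.42 to 0.085 for Rps27l.

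With 2 libraries per group no exact permutation test can go below 0.33. With a library left out, the lone library of its group is assumed to vary like the other group. Tfh T53 is the shallowest library and held the lowest level of most members. Members share libraries and scaling, so their number adds no replicates.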

Other observations

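Annotated ribosomal protein pseudogenes with a symbol, 239 in all, held 1537 and 632 counts in Tfh T32 and T53 and 1679 and 1071 in non-Tfh T32 and T53. Relative to the counts on the ribosomal protein genes, this was 0.436% ± 0.0166 in Tfh and 0.378% ± 0.0177 in non-Tfh (SD, n = 2). All 14 mitochondrially encoded genes tested had log2 fold changes above 0, with a median of 0.27 and none called.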
